A study of Homo sapiens with 12 samples.

Results

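The time course described here followed NCI-H1975 cells through 48 h in 2 compounds given together, with an untreated culture as the only reference. It was taken by its labels as the 4 arrays of cells in erlotinib plus quinacrine and the 1 untreated array, which make 5 of the 12 arrays of the study. NCI-H1975 is a human lung adenocarcinoma line that carries an EGFR with the changes L858R and T790M, and all arrays came from this 1 line. The combination arrays held cells in 1 µM erlotinib and 3 µM quinacrine for 6, 12, 24 or 48 h, and the untreated cells received neither compound and had no time in their label. The remaining arrays, 4 in 1 µM erlotinib alone (6, 12, 24 and 48 h) and 3 in 3 µM quinacrine alone (6, 12 and 24 h), entered where the fit used them or where a value is set beside them. Each condition was measured once. The labels do not state which arrays share a culture, and p-values therefore reflect only how these arrays spread, which may be technical.

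Erlotinib blocks the kinase of EGFR, and T790M is the change that lowers its hold on the mutant receptor. Quinacrine is an acridine that enters DNA, gathers in lysosomes, and is known for trapping the histone chaperone FACT on chromatin and for lowering NF-kappaB activity. The title of the study names FACT, NF-kappaB and cell cycle progression, so the genes of these processes were followed, together with interferon, sterol, stress and lysosomal genes.

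Levels are deposited log2 values, on which 1 unit is a 2-fold difference. Of 22395 genes with a single name, the 5820 with a mean of at least 5 over the 12 arrays were tested. The combination 6 h array stood apart from the other 11. Its interquartile range was 2.04 against 2.26 to 2.88, 7470 of its rows reached 5 against 8193 to 9169, and its median correlation with the other arrays was 0.955 against 0.968 to 0.981. The median tested gene lay 0.21 below its untreated level on that array, and 0.08, 0.07 and 0.04 above it at 12, 24 and 48 h. A relative difference below is a gene's difference from untreated minus this median for its array. EPCAM, CDH1, KRT7, NKX2-1, MUC1 and EGFR, of 9 markers of lung adenocarcinoma epithelium, were at 5 or more on all 5 arrays. The other markers of this list stayed below 5: KRT18 at 4.47 to 4.90, KRT8 at 2.85 to 3.15 and NAPSA at 2.21 to 3.86. Of 5 leukocyte markers CD68 alone reached 5 (8.23 to 8.78), PTPRC stayed at or below 1.38, and the endothelial and fibroblast markers on the array stayed below 5 throughout.

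Genes at a different level throughout the treatment were sought by comparing the mean of the 4 combination arrays with the untreated array. INPP5A, H2AX and PXDC1 passed the test, 3 of 5820 genes (0.0515%), 2 of them lower (0.0344%) and 1 higher (0.0172%). INPP5A, which encodes a phosphatase that removes inositol trisphosphate, was at 7.21 in untreated cells and at 5.67, 5.50, 5.50 and 5.82 after 6, 12, 24 and 48 h. All 4 treated levels lay below the untreated one, and the mean fell by 1.59 ± 0.19 on the log2 scale (SE, n = 4 arrays against 1), a 3.00-fold lower level (limma adjusted p = 0.0161). H2AX, the histone variant that is phosphorylated beside DNA breaks, was at 9.02 untreated and at 7.90, 7.64, 7.86 and 7.86 in the time course. Its mean fell by 1.21 ± 0.15 (limma adjusted p = 0.018), and all 4 treated levels lay more than 1 unit below untreated. PXDC1, a gene with a PX domain, was at 5.13 untreated and at 6.40, 6.74, 6.56 and 6.85 in treated cells. Its level was higher at every time, and its mean rose by 1.51 ± 0.21 (limma adjusted p = 0.0262). Under the other settings tried INPP5A was still called in 18 of 20 and H2AX in 16 of 20, whereas PXDC1 was called in 9 of 19 and so lost its call in most of them.

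These 3 transcripts already stood apart from untreated at the first time point. Over the 4 times their slopes were 0.05 ± 0.08 for INPP5A, 0.01 ± 0.07 for H2AX and 0.12 ± 0.07 for PXDC1 (log2 units per doubling of hours), and none passed the slope test. The mean test counts change over time as spread and so favours genes with a flat course. Their small slopes are therefore partly a result of how these genes were picked. In quinacrine alone INPP5A was at 5.87, 5.41 and 5.61, H2AX at 7.73, 7.68 and 7.87, and PXDC1 at 6.58, 6.58 and 6.40 (6, 12 and 24 h), also all on the same side of untreated as in the combination. In erlotinib alone INPP5A stayed between 7.01 and 7.18, H2AX between 8.65 and 8.91, and PXDC1 between 4.82 and 5.27. The lone untreated array was taken to have the same spread as arrays within a treatment. The number of calls was 0 without the combination 24 h array and 5 without the 48 h array, and 649 genes (11.2%) had an unadjusted p under 0.05.

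A gene could also stand at least 1 log2 unit from untreated at each of the 4 times, a description that needs no test. On deposited values 4 genes were higher throughout (EMC3-AS1, GDF15, IL24 and PXDC1; 0.0687%), and 7 were lower throughout (ARHGEF39, ATAD3A, H2AX, INPP5A, PUSL1, RN5S60 and SNAR-D; 0.12%). IL24, a cytokine of the IL-10 family, was at 5.24 untreated and at 6.66, 7.66, 7.47 and 7.69. GDF15, a stress-induced member of the TGF-beta family, was at 4.99 untreated and at 6.67, 7.22, 8.0 and 7.98. Both were well above untreated on every treated array and higher from 12 h than at 6 h, yet neither mean passed the test across genes: the difference was 2.13 ± 0.47 for IL24 (limma adjusted p = 0.203) and 2.48 ± 0.87 for GDF15 (limma adjusted p = 0.354). EMC3-AS1, a noncoding transcript, was at 5.05 untreated and between 6.13 and 6.28 in treated cells. ARHGEF39 was at 5.89 untreated and at 3.92, 4.82, 4.68 and 4.68. The small noncoding RNAs RN5S60 and SNAR-D, which belong to families of near-identical copies whose signals the probes may not separate, were at 7.35 and 6.46 untreated and no higher than 5.96 and 5.27 in treated cells. On the relative scale the counts were 6 higher (0.103%) and 5 lower (0.0859%), with DLGAP1-AS2, GALR2 and LIAT1 added and ATAD3A, PUSL1 and H2AX left out.

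**Figure D1:**
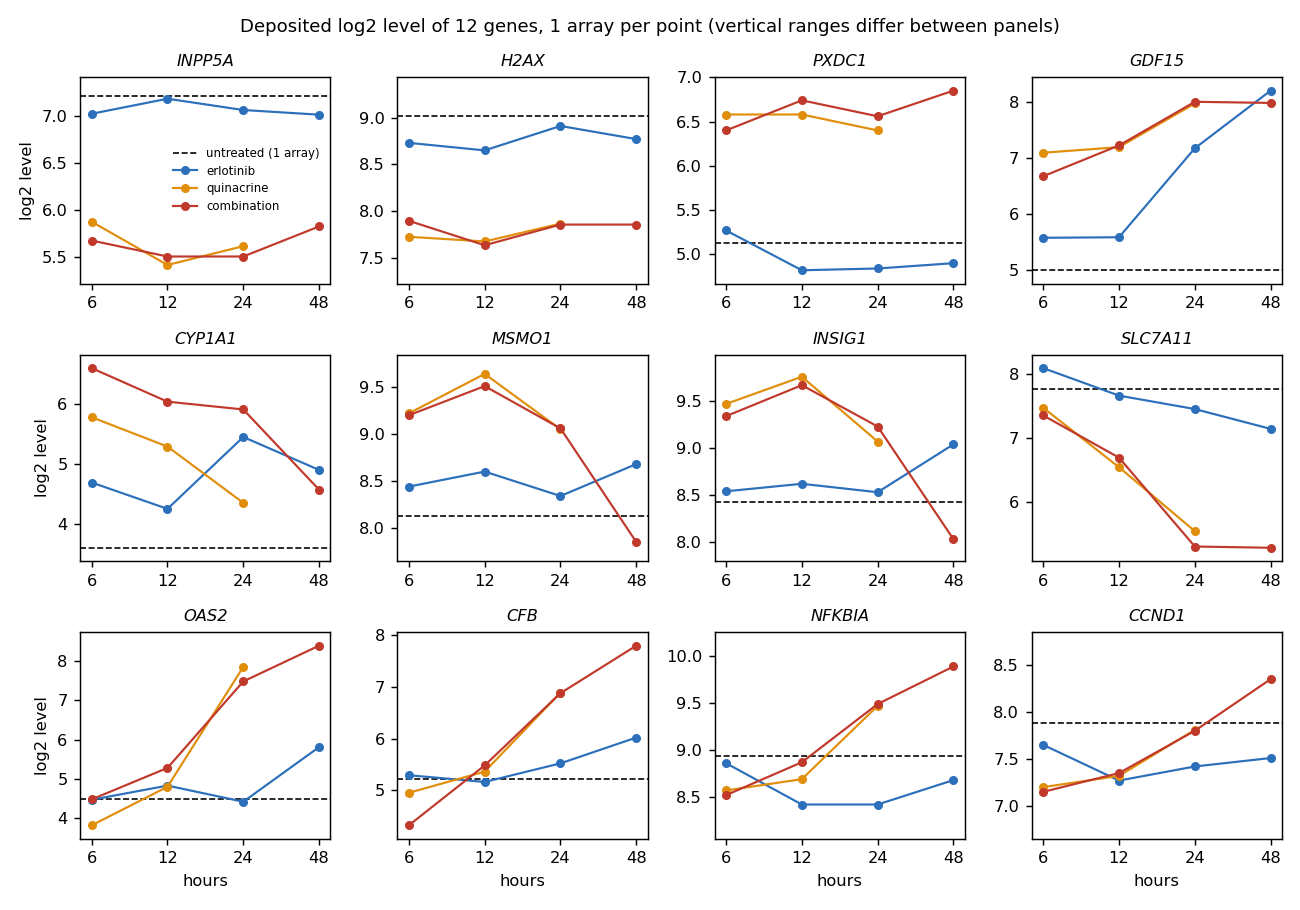
Deposited log2 level (vertical axis) of 12 genes against hours of treatment (horizontal axis, log2-spaced) in erlotinib (blue), quinacrine (orange) and the combination (red), with the untreated level as a dashed line and 1 array per point; the vertical ranges differ between panels. INPP5A and H2AX lie below and PXDC1 above untreated at all 4 times of the combination, CYP1A1 is highest at 6 h (6.60), MSMO1 and INSIG1 peak at 12 h (9.51 and 9.67), and OAS2 and CFB reach 8.39 and 7.80 at 48 h.

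The number of genes at least 1 log2 unit from untreated was counted at each time (1 array against 1, no test). On deposited values the count was 451 genes for 6 h (7.75%), 99 for 12 h (1.7%), 152 for 24 h (2.61%) and 177 for 48 h (3.04%). At 6 h 429 of these were lower (7.37%) and 22 higher (0.378%), whereas at 48 h 36 were lower (0.619%) and 141 higher (2.42%). The relative counts were 44 higher and 251 lower at 6 h (0.756% and 4.31%), 41 and 49 at 12 h (0.704% and 0.842%), 77 and 56 at 24 h (1.32% and 0.962%), and 131 and 46 at 48 h (2.25% and 0.79%). The set of higher genes thus grew from 12 to 48 h on both scales, while the large set of lower genes was seen at 6 h and at no other time.

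Of the 251 genes lower at 6 h on the relative scale, 190 were below 5 on that array, the value the filter asks of the mean, and 124 were within 0.5 of untreated at the other 3 times. The deepest of them were single-array values. PMS2CL, a pseudogene of the mismatch repair gene PMS2, was at 5.88 untreated, 2.03 at 6 h and 6.03, 6.08 and 6.08 later. SHLD2, a shieldin subunit in DNA end protection, went from 5.85 to 2.85 and was at 5.48, 5.72 and 5.62 later, and TRAF6, an adaptor upstream of NF-kappaB, went from 5.63 to 2.70 and was at 5.33, 5.28 and 5.49 later. These genes were low on the array that also had the narrowest spread of values, and the part of that array's quality in their values was not tested.

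**Figure D2:**
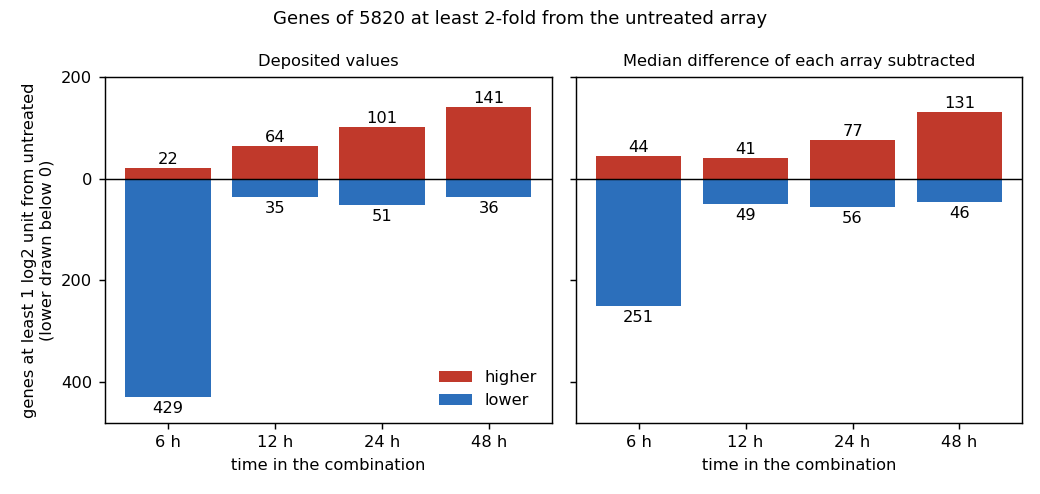
Number of the 5820 tested genes at least 1 log2 unit above (red) or below (blue, drawn downward) the untreated array at each time of the combination, on deposited values (left) and after the median difference of each array was subtracted (right); 1 array per time. At 6 h 429 genes are lower on deposited values and 251 on the relative scale, and genes higher number 141 and 131 at 48 h.

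CYP1A1, the xenobiotic-metabolising enzyme whose gene is the standard target of the aryl hydrocarbon receptor, had the largest rise at 6 h on the relative scale. Its level was 3.60 untreated and 6.60, 6.04, 5.91 and 4.57 at 6, 12, 24 and 48 h, highest at the first time and lower at each later one. Its slope fell by 0.62 ± 0.15 per doubling of hours (SE, limma adjusted p = 0.0476) and by 0.74 without the 6 h array. Only its treated levels up to 24 h lay above 5. ZNF600, a zinc finger gene, was at 4.80 untreated, 6.70 at 6 h and between 5.13 and 5.33 later, and no other time repeated its 6 h level. At 12 h and 24 h the largest relative rises included SNORA38B, a small nucleolar RNA, at 4.41 untreated and 4.15, 6.83, 7.77 and 7.35 in the time course.

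Progressive change was measured as a slope of the log2 level per doubling of hours from 6 to 48 h, so a slope of 1 is a 2-fold rise with each doubling and untreated cells do not enter it. With all arrays 289 genes passed the test (4.97%), 274 with a rising slope (4.71%) and 15 with a falling one (0.258%). With each array centred on the median tested gene, 446 passed (7.66%), 230 rising (3.95%) and 216 falling (3.71%), so the split between the directions depended on the centring. Without the 6 h array no gene passed limma's test (smallest adjusted p = 0.113), while 606 genes (10.4%) had an unadjusted p under 0.05. All 274 rising genes kept a positive slope on the remaining 3 arrays and all 15 falling genes a negative one, with an unadjusted p under 0.05 for 166 and 13 of them. Over all tested genes 2637 slopes were positive and 3183 negative on those arrays, and 271 and 335 had an unadjusted p under 0.05. The slopes with and without that array share the 12, 24 and 48 h arrays. Other single arrays also set the count: it was 921 without the combination 12 h array, 63 without the 24 h and 29 without the 48 h array, 92 and 109 without the erlotinib 24 and 48 h arrays, and 105 without any 1 of the quinacrine arrays.

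**Figure D3:**
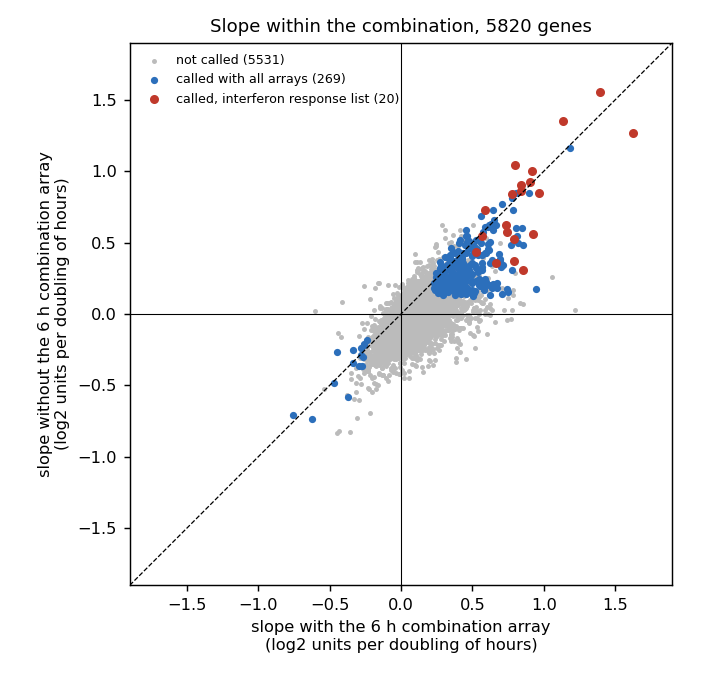
Slope of each of 5820 genes within the combination (log2 units per doubling of hours) with the 6 h array (horizontal axis) and without it (vertical axis); blue and red points passed the test with all arrays, red ones belong to the interferon response list, and the dashed line marks equal slopes. Every called gene keeps its sign without the 6 h array, and OAS2 has slopes of 1.39 and 1.56.

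Interferon response genes were the list with the highest median at 24 and 48 h. Type I and type III interferons act through JAK kinases and a complex that holds IRF9 and binds the interferon-stimulated response element (ISRE) in the promoters of antiviral genes. Of 41 listed genes 38 were on the array and 23 were tested. Their median relative difference was 0.04 after 6 h, 0.64 after 12 h, 1.91 after 24 h and 1.89 after 48 h, where the median over all tested genes is 0 by construction. At least 1 log2 unit above untreated were 0 of 23 after 6 h, 3 after 12 h, 20 after 24 h and 21 after 48 h, against 0.756%, 0.704%, 1.32% and 2.25% of all genes. The filter on the mean over 12 arrays let in some members through the late arrays on which they were high, which bears on these values. Over all 38 members on the array, with no filter, the medians were 0.03, 0.50, 1.96 and 2.04, and 0, 4, 33 and 35 were at least 1 log2 unit higher. Of all 22395 genes on the array 4.09%, 1.23%, 1.82% and 2.41% were that much higher. Of the 23, 13 were at 5 or more in untreated cells, and 0, 2, 11 and 12 of these 13 were that much higher, against 0.574%, 0.466%, 0.753% and 1.69% of the 5578 tested genes with such an untreated level. The slope test called 20 of 23 with a rise, against 4.71% of all genes, and 19 of 23 with centred arrays (3.95% of all genes); it called 12 of the 13, against 252 of the 5578; without the 6 h array none was called, and 15 had a rising slope with an unadjusted p under 0.05. The median slope of the 23 genes was 0.79 with that array and 0.63 without it (0.08 and -0.01 over all genes). The slope calls depended on the filter. In a fit with no filter on the mean, 10 of the 23 were called rising, and 8 of the 13. Of all 38 on the array 21 were called rising in that fit, against 90 of 22395 genes.

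The promoters of these genes are shown because many of the listed members hold a known element. A link between that element and the rise was not tested. The RefSeq promoter table (GRCh38.p14, 250 bases before to 50 after each start) held 19 of the 23. The core of the ISRE, searched as GAAA, any 2 bases and GAAA on either strand, was present in 13 of these 19 promoters (68.4%), in 3.57% of all 35116 promoters and in 2.79% of the 4805 promoters of tested genes. The upstream bases around the matches are printed in the gene's own direction, with the matches in capitals.
IFI44L (chr1:78620264-78620404, plus strand): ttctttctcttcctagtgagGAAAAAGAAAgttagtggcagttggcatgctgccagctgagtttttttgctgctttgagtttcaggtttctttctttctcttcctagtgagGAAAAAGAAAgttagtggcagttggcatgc
IFI6 (chr1:27672256-27672368, minus strand): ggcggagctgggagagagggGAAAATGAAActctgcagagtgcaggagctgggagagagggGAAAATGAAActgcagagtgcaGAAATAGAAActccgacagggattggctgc
IFIT1 (chr10:89392487-89392549, plus strand): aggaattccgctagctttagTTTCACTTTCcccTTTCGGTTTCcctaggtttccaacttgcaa
IFITM1 (chr11:313980-314029, plus strand): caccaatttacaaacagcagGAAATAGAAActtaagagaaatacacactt
OAS3 (chr12:112938311-112938473, plus strand): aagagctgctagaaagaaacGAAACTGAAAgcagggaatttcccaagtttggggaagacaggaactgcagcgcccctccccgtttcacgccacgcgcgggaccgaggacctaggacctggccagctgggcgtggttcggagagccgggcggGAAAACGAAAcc
IFI6 held 3 matches in a stretch of 113 bases, and IFI44L carried the same 10 letters in both of its matches. A match describes the letters and does not show that a factor was bound.

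Sensors and effectors of the antiviral response followed the same course. OAS2, which makes the oligoadenylate that activates RNase L, was at 4.49 untreated and at 4.48, 5.28, 7.48 and 8.39. It stayed at the untreated level at 6 h and was the gene furthest above untreated at 48 h, with a slope of 1.39 ± 0.20 (limma adjusted p = 0.0111) and of 1.56 without the 6 h array. XAF1, an antagonist of the apoptosis inhibitor XIAP, was at 5.54 untreated and at 4.07, 6.27, 8.30 and 8.80. Its 6 h level was below untreated, and its slope was 1.62 ± 0.19 (limma adjusted p = 0.00811), or 1.27 without that array. IFI44L, with no settled molecular role, was at 4.19 untreated and at 4.24, 4.57, 6.81 and 7.27. Like OAS2 it was near untreated at 6 h and more than 2 units above it at 24 h, and its slope was 1.13 ± 0.22 (limma adjusted p = 0.0301), or 1.35 without the 6 h array.

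IFI6, a mitochondrial and ER membrane protein, was at 8.51 untreated and at 8.81, 8.99, 10.14 and 11.08, with a slope of 0.80 ± 0.11 (limma adjusted p = 0.00941) and of 1.05 without the 6 h array. USP18, the protease that removes ISG15 and damps the receptor, was at 7.88 untreated and at 7.89, 8.40, 10.03 and 10.40 (slope 0.92 ± 0.12, limma adjusted p = 0.00883; 1.00 without the 6 h array). IFITM1, which blocks viral entry, was at 5.91 untreated and at 5.85, 6.65, 7.73 and 8.50 (slope 0.90 ± 0.12, limma adjusted p = 0.00883). All of these transcripts were highest at 48 h. IRF9, the DNA-binding subunit of the ISRE complex, was at 4.48 untreated and at 4.61, 5.23, 6.64 and 6.95 (slope 0.84 ± 0.12, limma adjusted p = 0.0122). HERC6, a ubiquitin ligase, was at 6.45 untreated and at 6.28, 6.79, 8.23 and 8.60, and SAMD9, an antiviral factor, at 6.73 and at 5.72, 6.82, 8.11 and 8.51; both passed the slope test at a limma adjusted p of 0.00811.

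Not every member followed this course. IFIT1, IFITM2 and IFITM3 did not pass the slope test. IFIT1, which binds viral RNA caps, was at 4.81 untreated and at 4.42, 5.55, 6.96 and 6.15, above untreated from 12 h but lower at 48 h than at 24 h. IFITM2 was at 6.85 untreated and between 6.29 and 6.73 in treated cells, so it was the member that lay below untreated at all 4 times. IFIH1, the cytosolic sensor MDA5, was at 4.06 untreated and at 3.89, 5.47, 6.43 and 6.21, and it was at least 1 log2 unit higher from 12 h. From 24 to 48 h 14 of the 23 members were higher on the relative scale, beside 2984 of all 5820 genes. The other members were not, and the group as a whole showed no further gain in its median.

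The same 23 genes were at a median relative difference of -0.09, 0.52 and 2.01 in quinacrine alone (6, 12 and 24 h) and of 0.06, 0.20, 0.31 and 0.73 in erlotinib alone (6, 12, 24 and 48 h), all against the same untreated array. On the relative scale 20 members at 24 h of quinacrine and 5 at 48 h of erlotinib were at least 1 log2 unit above it. Of all 5820 genes, 84 and 63 were that much higher on these 2 arrays. The difference in slope between combination and erlotinib had an unadjusted p under 0.05 and a positive sign for 16 of the 23, against 783 of all 5820 genes. It passed the test across genes for none of the 23. The difference from the quinacrine slope, which covers 24 h only, was -0.62 for OAS2, with a 95% interval of -1.46 to 0.21, and -0.00 for XAF1 (-0.78 to 0.78).

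**Figure D4:**
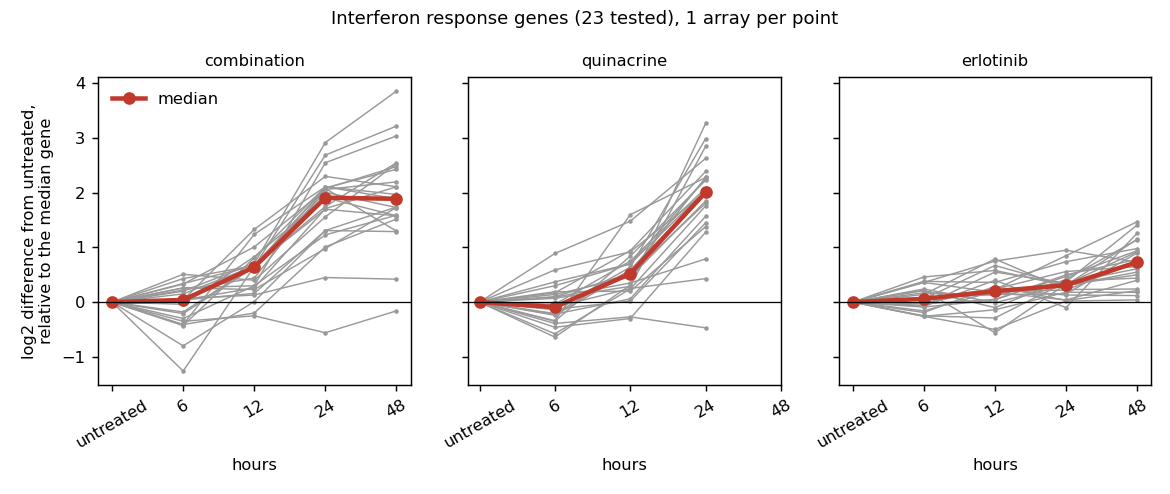
Log2 difference from untreated relative to the median gene (vertical axis) of the 23 tested interferon response genes (grey, 1 line per gene) and their median (red) at each time in the combination, in quinacrine and in erlotinib; each point is 1 array and all share the untreated array. The median in the combination goes from 0.04 at 6 h to 1.91 at 24 h and 1.89 at 48 h, and reaches 2.01 at 24 h of quinacrine and 0.73 at 48 h of erlotinib.

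Genes within 0.5 of untreated at 6 and 12 h and at least 1 log2 unit higher at 24 and 48 h (relative scale) numbered 13 of 5820. Of these 13, 6 were on the interferon list, which holds 23 of the 5820 tested genes. IFI44L and PARP9, among the 6, were below 5 in untreated cells, at 4.19 and 4.95. The genes outside the list included CTSS, the lysosomal protease cathepsin S, at 6.32 untreated and at 6.14, 6.81, 7.78 and 8.51. Its slope was 0.81 ± 0.11 (limma adjusted p = 0.00941), or 0.85 without the 6 h array. NES, the intermediate filament nestin, was the 1 gene with the reverse pattern, at 5.95 untreated and at 5.71, 5.94, 4.91 and 4.80.

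The smallest p of any slope belonged to CFB, complement factor B of the alternative pathway. CFB was at 5.21 untreated and at 4.32, 5.48, 6.88 and 7.80, lowest at 6 h and highest at 48 h. Its slope was 1.18 ± 0.10 (limma adjusted p = 0.00372) and 1.16 without the 6 h array. Antigen presentation genes, which load peptides onto MHC molecules, had 12 tested members of 20 on the array. The median relative difference of these 12 was 0.33, 0.20, 0.49 and 0.91 at the 4 times. The slope test called 5 of them with a rise and 3 with centred arrays, where 4.71% and 3.95% of all genes were called. HLA-F, a nonclassical class I chain, was at 5.42 untreated and at 5.10, 5.52, 5.89 and 6.48 (slope 0.45 ± 0.06, limma adjusted p = 0.00811; 0.48 without the 6 h array). TAP1, a subunit of the peptide transporter, was at 5.93 untreated and at 6.16, 6.76, 7.17 and 7.21 (slope 0.36 ± 0.07, limma adjusted p = 0.0399; 0.23 without the 6 h array). B2M, the light chain of class I molecules, was at 5.63 untreated and at 5.61, 5.76, 6.29 and 6.57. All 3 were highest at 48 h.

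NF-kappaB, held in the cytoplasm by IkappaB proteins until a signal removes them, was followed through its targets and through its own subunits and feedback inhibitors. The 16 tested targets, of 33 on the array, had a median relative difference of 0.23, 0.10, 0.51 and 0.87. On the relative scale 3, 3, 5 and 7 of the 16 were at least 1 log2 unit above untreated (0.756%, 0.704%, 1.32% and 2.25% of all genes), and none was that far below. Of the 13 targets at 5 or more in untreated cells 1, 2, 2 and 4 were that much higher. The shares of the 5578 tested genes with such an untreated level were 0.574%, 0.466%, 0.753% and 1.69%. Part of the count over the 16 thus came from genes that were low in untreated cells. The slope test called 2 of 16 with a rise, NFKBIA and CXCL16, on both scales (4.71% of all genes, or 3.95% with centred arrays). NFKBIA, which encodes IkappaB alpha, was at 8.94 untreated and at 8.52, 8.87, 9.49 and 9.89. It was below untreated at 6 and 12 h and above it at 24 and 48 h, with a slope of 0.47 ± 0.08 (limma adjusted p = 0.0239), or 0.51 without the 6 h array. CXCL16, a chemokine also made as a membrane protein, was at 4.66 untreated and at 4.67, 6.05, 6.52 and 6.82 (slope 0.69 ± 0.11, limma adjusted p = 0.0182; 0.39 without the 6 h array). ICAM1, the adhesion molecule that binds leukocyte integrins, was at 7.64 untreated and at 8.51, 8.33, 8.50 and 8.78. It was higher at every time, by a mean of 0.89 ± 0.27 that did not pass the test (limma adjusted p = 0.312).

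The secreted NF-kappaB targets CCL2 and CXCL8 were above untreated at every time, without a called slope. CCL2, the monocyte chemokine, was at 7.72 untreated and at 8.04, 9.19, 9.70 and 9.32, and CXCL8, the neutrophil chemokine, at 4.46 untreated and at 5.39, 5.23, 6.15 and 6.24. The cytokine and chemokine list, of which 7 of 38 on the array were tested, had medians of 0.53, 1.31, 1.79 and 1.74, and CXCL16 was its 1 called slope. Only 3 of these 7 were at 5 or more in untreated cells, and over all 38 on the array the medians were 0.39, 0.05, 0.53 and 0.65. Of the subunits and regulators, 11 of 16 were tested and 2 were called with a rise (1 with centred arrays), against 4.71% and 3.95% of all genes. RELA, the main activating subunit, was at 7.27 untreated and between 7.21 and 7.39 in treated cells. NFKB1, the p50 precursor, was at 6.59 untreated and at 6.04, 6.38, 6.52 and 6.40. TNFAIP3, the feedback deubiquitinase A20, was at 7.53 untreated and at 7.53, 7.52, 8.14 and 8.70, so it differed from untreated at 24 and 48 h only. CYLD, another deubiquitinase of the pathway, was at 5.10 untreated and at 6.03, 6.59, 6.14 and 6.08, higher at all times. A kappaB site, searched as GGG, any 5 bases and CC on either strand, was in 11 of 12 promoters of tested targets (91.7%), but also in 58.7% of all promoters and 75.3% of those of tested genes, so no sequence is shown.

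**Figure D5:**
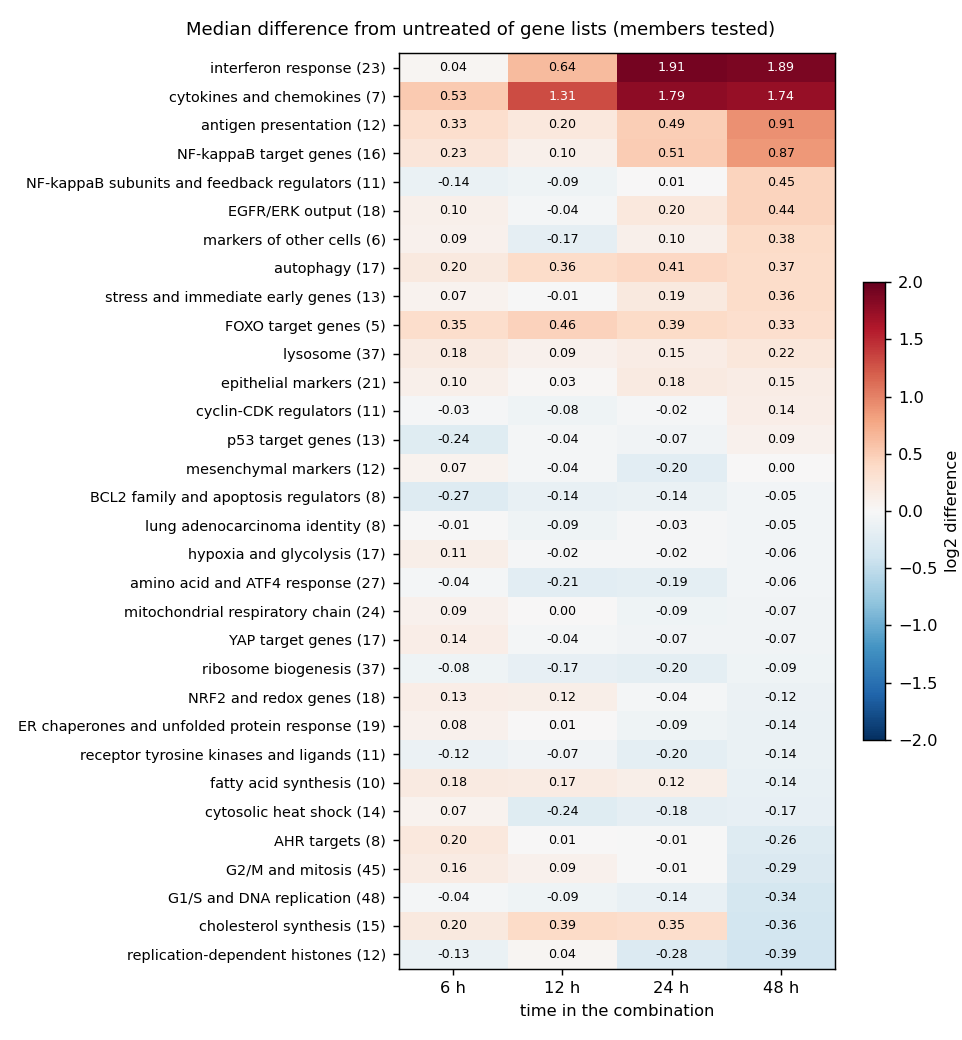
Median log2 difference from untreated, relative to the median gene (colour and printed value), of the gene lists with at least 5 tested members (rows, number tested in brackets) at 6, 12, 24 and 48 h of the combination (columns, 1 array each). The interferon response list is highest at 24 and 48 h (1.91 and 1.89), and cholesterol synthesis goes from 0.39 at 12 h to -0.36 at 48 h. The G1/S and G2/M lists lie at -0.34 and -0.29 at 48 h, and the cyclin-CDK regulators at 0.14.

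Genes of cholesterol synthesis are switched on by SREBP2 when ER sterol is low. On the relative scale most of them stood above untreated at the first 3 times and below it at 48 h. Their median relative difference, over 15 tested genes of 20 on the array, was 0.20, 0.39, 0.35 and -0.36. The 6 h value rests on the subtracted median of that array, which was -0.21. On the same scale 2 genes at 6 h and 3 at 12 h were at least 1 log2 unit above untreated (0.756% and 0.704% of all genes), and no gene later. MSMO1, a C4-methyl sterol oxidase, was at 8.13 untreated and at 9.20, 9.51, 9.06 and 7.85. INSIG1, the sterol-induced brake on SREBP processing, was at 8.43 untreated and at 9.34, 9.67, 9.23 and 8.03, and HMGCS1, the first committed synthase of the pathway, at 6.87 untreated and at 7.27, 7.95, 7.29 and 6.30. All 3 peaked at 12 h and were below untreated at 48 h. The 48 h level lay below the 24 h level in 15 of 15 genes, which is a comparison of 1 array with 1 array. Of all 5820 tested genes, 2984 were higher at 48 h than at 24 h on the relative scale. No slope was called; with centred arrays 5 were called falling, against 3.71% of all genes. Without the 6 h array 9 of the 15 had a falling slope with an unadjusted p under 0.05 against 335 of 5820 genes.

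On deposited values 15 slopes were called falling, against 216 with centred arrays. SLC7A11, the cystine and glutamate exchanger and a target of ATF4 and NRF2, was at 7.77 untreated and at 7.35, 6.69, 5.30 and 5.28. It was below untreated at every time and more than 2 units below at 24 and 48 h. Its slope fell by 0.76 ± 0.10 per doubling (limma adjusted p = 0.009), and by 0.71 without the 6 h array. EDF1, a transcriptional coactivator, was at 9.56 untreated and at 9.05, 8.80, 7.76 and 7.83 (slope -0.47 ± 0.10, limma adjusted p = 0.0435; -0.48 without the 6 h array). BOP1, a factor in the maturation of the large ribosomal subunit, was at 7.94 untreated and at 7.88, 7.15, 6.45 and 6.62 (slope -0.45 ± 0.10, limma adjusted p = 0.0451; -0.27 without the 6 h array). The list of amino acid and ATF4 response genes as a whole had 27 tested members, of which SLC7A11 was the 1 called falling slope and 3 were called rising, against 0.258% and 4.71% of all genes (ATF4 was among the rising, at 6.51 untreated and at 5.77, 6.36, 6.55 and 6.79). The medians of this list were -0.04, -0.21, -0.19 and -0.06.

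The G1/S and G2/M lists had a lower median at 48 h than at earlier times, by less than the interferon genes were higher. The cyclin-CDK regulators, 11 tested of 18 on the array, did not, with medians of -0.03, -0.08, -0.02 and 0.14. The G1/S and DNA replication genes, 48 tested of 52 on the array, had a median relative difference of -0.04, -0.09, -0.14 and -0.34. The G2/M and mitosis genes, 45 tested of 50, had 0.16, 0.09, -0.01 and -0.29. Of the 45 G2/M genes 4 were higher at 48 h than at 24 h on the relative scale, against 2984 of all 5820 genes. The slope test called 1 G1/S gene with a rise and none with a fall, and 1 G2/M gene in each direction; with centred arrays 3 of 48 and 8 of 45 were called falling, against 3.71% of all genes. Without the 6 h array 11 of 48 and 25 of 45 had a falling slope with an unadjusted p under 0.05, as did 335 of all 5820 genes. The falling G2/M gene was GTSE1, a microtubule-bound regulator of p53, at 7.28 untreated and at 7.80, 7.42, 7.25 and 6.99 (slope -0.26, limma adjusted p = 0.048; -0.21 without the 6 h array). KIF20A, a mitotic kinesin, was at 7.78 untreated and at 7.19, 7.58, 7.42 and 6.61, and CCNE2, the S-phase cyclin E2, at 5.59 untreated and at 5.27, 4.97, 4.78 and 4.49. CDK1, the mitotic kinase, was at 5.44 untreated and between 5.24 and 5.50 in treated cells. Because each array measured RNA of a whole culture, fewer cells in a phase and less transcript per cell cannot be told apart.

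Of 12 tested replication-dependent histones, whose messages are made in S phase, H2BC3 was the 1 called slope, a falling one (0.258% of all genes). H2BC3 was at 6.77 untreated and at 7.08, 7.2, 6.63 and 6.04 (slope -0.37 ± 0.08, limma adjusted p = 0.0442; -0.58 without the 6 h array), and the median of the list was -0.13, 0.04, -0.28 and -0.39. CCND1, which encodes cyclin D1, was at 7.88 untreated and at 7.15, 7.35, 7.80 and 8.35. It lay below untreated at 6, 12 and 24 h and above at 48 h, with a slope of 0.41 ± 0.07 (limma adjusted p = 0.0248), or 0.50 without the 6 h array. GADD45A, a p53 and stress target, was at 5.71 untreated and at 5.26, 5.67, 5.80 and 6.41 (slope 0.36 ± 0.06, limma adjusted p = 0.0239; 0.37 without the 6 h array). CDKN1A, which encodes p21, did not reach the filter; it was at 4.26 untreated and at 3.97, 3.81, 4.08 and 4.64. MYC was at 8.31 untreated and at 7.89, 7.86, 7.97 and 8.29.

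The 18 tested genes of EGFR and ERK output had a median relative difference of 0.10, -0.04, 0.20 and 0.44, and 4 had a called rising slope (2 with centred arrays), CCND1 among them, against 4.71% and 3.95% of all genes. EREG, an EGFR ligand, was at 7.92 untreated and at 6.94, 6.94, 6.86 and 6.82, about 1 unit lower at all times. EGFR itself was at 8.63 untreated and at 7.76, 8.21, 8.45 and 8.55, lowest at 6 h, on the array where the median tested gene was also lowest. MUC1, an epithelial mucin, was at 6.44 untreated and at 6.15, 6.36, 7.22 and 7.73 (slope 0.56 ± 0.09, limma adjusted p = 0.0174; 0.69 without the 6 h array).

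The 2 subunits of FACT did not pass any test. SUPT16H was at 8.54 untreated and at 8.31, 8.45, 8.46 and 8.44, a mean difference of -0.13 with a 95% interval of -0.44 to 0.19 (limma adjusted p = 0.818). SSRP1 was at 8.02 untreated and at 7.93, 8.27, 8.05 and 7.92, above untreated at 12 and 24 h and below it at 6 and 48 h.

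The time course of the combination was set against that of erlotinib alone by testing the difference of the 2 slopes, each over the same 4 times. It passed for 6 genes (0.103%), all steeper in the combination: CCN3, DNER, F3, NFKB2, RNF223 and VCAN. CCN3, a matricellular protein, was at 5.31, 5.99, 6.40 and 7.23 in the combination and at 4.97, 5.08, 4.75 and 4.67 in erlotinib, with 4.93 untreated. The 2 courses did not overlap, and their slopes differed by 0.74 ± 0.10 (limma adjusted p = 0.0492). F3, which encodes tissue factor, was at 7.30, 7.51, 7.71 and 8.04 in the combination and at 6.85, 6.55, 5.89 and 5.63 in erlotinib, with 6.96 untreated; the slopes differed by 0.67 ± 0.09 (limma adjusted p = 0.0492). The combination lay above and erlotinib below the untreated level of F3 at all 4 times. NFKB2, the p100 precursor of NF-kappaB p52, was at 6.53, 6.81, 6.97 and 7.25 in the combination and at 6.87, 6.54, 6.27 and 5.75 in erlotinib, with 6.90 untreated (difference 0.60 ± 0.08, limma adjusted p = 0.0492). RNF223, a ring finger gene, had the largest difference, 1.14 ± 0.16 (limma adjusted p = 0.0493), and its combination level was 4.07 at 6 h and 5.51, 5.65 and 6.71 later. DNER, a Notch ligand, and VCAN, the proteoglycan versican, differed by 0.73 ± 0.09 and 0.80 ± 0.11 (limma adjusted p = 0.0492 for both). None of the 6 passed with centred arrays, where no gene was called by limma and the 6 differences kept their sign, and 885 genes had an unadjusted p under 0.05 on deposited values. With arrays matched by time (time of treatment as a block, 3 residual degrees of freedom) none of the 6 passed either (smallest limma adjusted p = 0.177; 707 genes at an unadjusted p under 0.05). The count was 110 without the combination 12 h array and 0 without any other single treated array.

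The slope of the combination minus that of quinacrine passed for no gene (0.0%), with a smallest limma adjusted p of 0.999 and 177 genes (3.04%) at an unadjusted p under 0.05. Quinacrine alone had no 48 h array, so its slope covers 6 to 24 h, and this does not show that the 2 courses are alike: the 95% interval of the difference was -0.21 to 0.64 for CFB, -0.21 to 0.62 for SLC7A11 and -0.84 to 0.37 for INSIG1.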

How the data were processed

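RNA of NCI-H1975 cells was measured on 12 Affymetrix Human Gene 2.1 ST arrays. The authors ran RMA in Affymetrix Expression Console 1.30, per the labels: correction for background, quantile normalization, then log2. Their probe set annotation was for hg19. The deposited log2 values were used as given. Of 53617 rows, 23871 had 1 gene symbol, 1842 several and 27904 none in the platform annotation; rows with several symbols were not named. Symbols of 22569 rows were matched to RefSeq through Entrez IDs, and 90 changed. The row of highest mean was kept for the 632 genes with several rows, and 5820 of 22395 genes had a mean of at least 5 over the 12 arrays. Arrays have no read depth, and their number limits the precision.

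Tests were made with limma 3.58.1 (lmFit, eBayes) in R 4.3.3, adjusted by Benjamini-Hochberg over the 5820 genes at 0.05. The mean against untreated came from group means of all 12 arrays (8 residual degrees of freedom), where change over time counts as spread. Slopes came from 1 fit of the 11 treated arrays with an intercept and a slope over log2 hours for each treatment (5 residual degrees of freedom). The residual spread is the departure of single arrays from group means or straight lines, not replicate error. The script was tested on simulated data. Differences at single times are 1 array against 1 and have no test.

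The time course, the 34 gene lists and the rule for named genes were chosen with earlier results of these data known. The rule took all genes called in the mean; the genes at least 1 log2 unit away at all times (up to 6 a direction); the 3 largest relative rises and falls at each time; the 8 largest called slopes a direction; the 3 smallest p of each slope contrast; up to 4 early or late genes; the 3 largest mean differences and slopes of each list; and 15 fixed genes. PUSL1, DLGAP1-AS2, GALR2, LIAT1, IRF9, IFIT1, IFITM1, IFITM2, IFITM3, OAS3, B2M, HMGCS1, GTSE1, RNF223 and VCAN were named after their values were seen. Promoters are RefSeq sequences of GRCh38.p14. Alternatives covered centring, loess, filters, rows, array weights, a variance trend, the arrays in the fit, linear hours, the time of treatment as a block and leaving out each array.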

Additional observations from a re-analysis of the deposited data

Results flagged for a closer look

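Among the 4 combination arrays the 6 h array was an outlier by Dixon's criterion in 4 array measures. Its interquartile range was 2.04, 7470 of its rows reached 5, its median correlation with the other arrays was 0.9554 and its median over the tested genes was 6.18. Of 83 genes described here, 10 had a combination level that stood apart from the other 3, and 9 of these levels were on the 6 h array. Some of these genes were named for their 6 h level, and the 4 arrays are different times, so no chance rate is set beside the count. On the 6 h array SUPT16H was at 8.31, CDH1 at 10.08, KRT7 at 6.90, ARHGEF39 at 3.92, PMS2CL at 2.03, SHLD2 at 2.85 and TRAF6 at 2.70, all lower than at the other 3 times. ZNF600 at 6.70 and the leukocyte marker PTPRC at 1.38, a level near background, were higher there. H2AX was lowest at 12 h, at 7.64, a level that still lay on the same side of untreated as at the other times.

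The slope differed between combination and erlotinib for 6 genes by limma's test, with positive differences of 0.74 for CCN3, 0.73 for DNER, 0.67 for F3, 0.60 for NFKB2, 1.14 for RNF223 and 0.80 for VCAN (log2 units per doubling of hours, adjusted p = 0.0492 or 0.0493).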

How the results depend on the processing

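Calls rested on single arrays. Genes called in the mean against untreated numbered 3, and 6 with median centring, 1 over all rows of the table, 809 with array weights, 0 with only the untreated and combination arrays (404 with an unadjusted p under 0.05), 8 with centring and no 6 h combination array (chosen after seeing the data) and 0 to 5 when 1 array was left out. Slope calls numbered 289, and 446 with centring, 92 with no filter, 0 over all rows (8725 rows with an unadjusted p under 0.05), 24 with array weights, 467 with a variance trend, 5 with the 4 combination arrays alone, 105 with the erlotinib and combination arrays, 8 with linear hours, 4 with centring and no 6 h array, and 0 to 921 when 1 array was left out. With cyclic loess 358 slopes were called, 245 rising and 113 falling. The 6 calls against erlotinib became 22 with a variance trend, 0 with centring, loess, no filter, all rows, array weights, 2 arms, linear hours, or centring without the 6 h array, and 0 to 110 when 1 array was left out; the smallest adjusted p was 0.0535 with centring and with loess. Against quinacrine no gene was called under any of 23 alternatives, with 79 to 508 genes at an unadjusted p under 0.05 among the tested genes. The cause of these changes was not tested.

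Genes at least 1 log2 unit from untreated numbered 451 at 6 h, and 271 with centring, 270 with loess, 1701 with no filter, 169 with a mean of at least 6 and 1315 at 1.5-fold. At 12 h 99 became 575 with no filter, 49 with a mean of at least 6 and 618 at 1.5-fold, at 24 h 152 became 738, 72 and 718, and at 48 h 177 became 821, 85 and 779. Of 39 gene results with a test, none changed sign under any alternative run, and 32 lost their call without the 6 h combination array. The labels carry no replicate numbers, so arrays could be paired by time of treatment only, an alternative chosen after seeing the data. With the time as a block 0 genes were called against erlotinib and 0 against quinacrine (707 and 115 with an unadjusted p under 0.05), and with centring as well 4 were called against erlotinib, RNF223 among them, and 0 against quinacrine.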

Other observations

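Several further genes had a slope called with and without centring of the arrays and an unadjusted p under 0.05 without the 6 h array; they were chosen after their values were seen. MDK, the growth factor midkine, was at 6.73 untreated and at 7.0, 7.62, 8.21 and 8.84 at 6, 12, 24 and 48 h of the combination (slope 0.61, limma adjusted p = 0.00372; 0.61 without the 6 h array). DPP4, a cell surface peptidase, was at 5.25 untreated and at 5.67, 6.25, 7.05 and 7.57, and IGFBP6, which binds insulin-like growth factor II, at 5.77 and at 4.85, 5.87, 6.69 and 7.56. All 3 were highest at 48 h. SAMHD1, a nucleotide hydrolase that restricts viruses, was at 6.54 untreated and at 6.25, 6.70, 7.79 and 8.24, above untreated by more than 1 log2 unit at 24 and 48 h. KCTD5, an adaptor of cullin ubiquitin ligases, also had a rising slope (0.51, limma adjusted p = 0.0106) but lay below untreated throughout. It was at 9.21 untreated, 6.92 at 6 h and 7.5, 8.02 and 8.45 later, closest to untreated at 48 h.

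Lysosomal genes, of which 37 were tested, had medians of 0.18, 0.09, 0.15 and 0.22 relative to the median gene, and 3 had a called rising slope (CTSS, HEXA and MCOLN1), against 4.71% of all genes. NPC1, which exports cholesterol from lysosomes, was at 8.65 untreated and at 9.14, 9.38, 9.42 and 9.32, higher at all 4 times without a called mean. The 17 tested autophagy genes had medians of 0.20, 0.36, 0.41 and 0.37, and 2 had a called rising slope (SQSTM1 and UVRAG), beside the same share.

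The genes of the interferons themselves were read after the interferon response was seen. None of 20 reached 5 on any of the 5 arrays, so they lay outside the tests. IFNL1, a type III interferon, was at 1.39 untreated and at 1.41, 2.14, 3.36 and 4.43 in the combination, at 2.09, 2.66 and 4.51 in quinacrine (6, 12 and 24 h) and between 1.27 and 1.87 in erlotinib. IFNB1 was at 0.83 untreated and between 0.83 and 1.61 in the combination.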
